A study of Mus musculus with 10 samples.

Results

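The genes described here were the heat shock chaperones of the cytosol and the chaperones and stress regulators of the endoplasmic reticulum (ER), in the medial habenula of mice in nicotine withdrawal and of saline controls. The membership rule listed 47 mouse gene symbols and kept those with a mean level of at least 0.5 FPKM (a level corrected for gene length and library size) over all libraries. It kept 46 genes of the 56691 in the deposited table: 21 cytosolic, 3 mitochondrial, 5 stress regulators and 17 of the ER. The one listed gene left out was Trib3, with 6 to 19 reads per library and a mean of 0.276 FPKM. Total RNA was sequenced from 10 wild-type mice, 1 library per mouse. The 6 withdrawal mice had received nicotine ditartrate at 4 mg/kg intraperitoneally, 2 injections a day for 14 days, with saline in its place from day 15. The 4 control mice received saline injections for 17 days, and tissue from both groups was taken on day 17. Age, sex, litter and batch are not given in the labels. The source label names cholinergic neurons obtained by cell sorting, whereas the series record names medial habenula tissue. Markers of glia, vessels, choroid plexus and meninges were measured in every library, so the libraries were read as mixed tissue. In such libraries fewer cells of a type and less RNA per cell cannot be told apart.

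Chaperones bind unfolded protein and help it to fold, to be refolded after damage or to be handed to degradation. In the cytosol, heat and other proteotoxic stress free heat shock factor 1 (Hsf1), which binds heat shock elements and induces Hspa1a, Hspa1b, Hsph1, Hspb1 and their cochaperones, while Hspa8 and Hsp90ab1 serve unstressed cells. In the ER, unfolded protein activates the sensors Ire1 (Ern1), Perk (Eif2ak3) and Atf6, which act through spliced Xbp1, through Atf4 and through cleaved Atf6 to induce ER chaperones and degradation factors. Xbp1 splicing and Atf6 cleavage are not seen in gene counts. Neurons of the medial habenula assemble nicotinic acetylcholine receptors in the ER, a step that needs calnexin and other chaperones.

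Cytosolic and ER members held different stress elements in their promoters, and the sequences are shown because they carry the element each stress response is known to use. Promoters came from RefSeq (build GRCm38.p6, not the mm39 build of the counts) as windows of 250 bases before to 50 after each start, and 38 of the 46 members had one. A pair of inverted heat shock units (GAANNTTC or TTCNNGAA, the 2 forms of the element, searched on both strands) was found in 9 of 17 cytosolic members: Hspa1a, Hspa1b, Hsph1, Hspb1, Hspb8, Bag3, Chordc1, Dnaja1 and Dnajb4. It was also found in both mitochondrial members with a window, Hspd1 and Hspe1, in 0 of 15 ER members, and in 17.0% of the 27025 genes with a window. Chordc1, Hsph1, Hspd1 and Hspe1 held 3 such units in a row, as did 0.662% of genes. The units lay at positions -144 to -127 from the start of Hspd1 and -89 to -72 from that of Hspe1. These may be the same bases, so the 2 genes may not be separate cases. The bases before the start of the 3 members below, which overlap no exon of GENCODE M21, are printed with these units in capitals: Hspa1a (chr17:34972157-34972406, minus strand), Hspa1b (chr17:34959239-34959488, minus strand) and Hspb1 (chr5:135887669-135887918, plus strand).
Hspa1a: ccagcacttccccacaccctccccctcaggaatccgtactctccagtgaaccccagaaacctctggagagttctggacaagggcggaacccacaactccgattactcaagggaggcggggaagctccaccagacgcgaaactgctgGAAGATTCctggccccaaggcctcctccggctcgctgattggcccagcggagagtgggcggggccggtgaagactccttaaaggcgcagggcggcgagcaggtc
Hspa1b: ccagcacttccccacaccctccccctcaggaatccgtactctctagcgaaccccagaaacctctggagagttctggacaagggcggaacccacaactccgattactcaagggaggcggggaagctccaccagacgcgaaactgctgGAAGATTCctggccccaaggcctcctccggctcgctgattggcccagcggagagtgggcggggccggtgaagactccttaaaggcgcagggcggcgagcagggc
Hspb1: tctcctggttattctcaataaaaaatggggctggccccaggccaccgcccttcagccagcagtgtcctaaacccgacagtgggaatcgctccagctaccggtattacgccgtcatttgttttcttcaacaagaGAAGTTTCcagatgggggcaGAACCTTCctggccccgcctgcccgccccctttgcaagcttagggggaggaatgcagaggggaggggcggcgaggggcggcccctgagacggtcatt

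Hspa1a and Hspa1b are neighbouring copies of the inducible Hsp70 gene. Their printed promoters were identical at 247 of 250 bases (98.8%), with the unit at the same place, 104 to 97 bases before the start. The longest open reading frames of their GENCODE M21 transcripts were 99.4% identical. Of the 150-base windows along each transcript, 38.1% in Hspa1a and 40.5% in Hspa1b occurred unchanged in the other copy. Reads may therefore be shared or dropped between the 2 genes, and their values are uncertain as separate genes.

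The ER stress response element, CCAAT and CCACG parted by 9 bases and searched on both strands, was found in 8 of 15 ER members: Hspa5, Hsp90b1, Calr, Canx, Pdia6, Dnajc3, Creld2 and Syvn1. It was found in 0 of 17 cytosolic members and in 37 of the 27025 genes (0.137%). No member's window held both this element and a heat shock pair. A shorter element attributed to Xbp1, TGACGTGG, was in the window of 0 members and of 0.714% of genes, and TGATGNAA, a site of the Atf4 type, was in Chac1 and Herpud1 and in 4.51% of genes. These are matches of letters in one window. The element is in capitals below for Creld2 (chr15:88819396-88819645, plus strand, where it lies on the opposite strand), Dnajc3 (chr14:118937682-118937931, plus strand) and Syvn1 (chr19:6046326-6046575, plus strand), whose printed bases again overlap no annotated exon.
Creld2: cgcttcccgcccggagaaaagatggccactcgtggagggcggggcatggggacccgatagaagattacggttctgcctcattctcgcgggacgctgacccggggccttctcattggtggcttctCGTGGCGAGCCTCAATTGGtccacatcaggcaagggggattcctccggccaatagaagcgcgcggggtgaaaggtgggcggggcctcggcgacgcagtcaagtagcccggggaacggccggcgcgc
Dnajc3: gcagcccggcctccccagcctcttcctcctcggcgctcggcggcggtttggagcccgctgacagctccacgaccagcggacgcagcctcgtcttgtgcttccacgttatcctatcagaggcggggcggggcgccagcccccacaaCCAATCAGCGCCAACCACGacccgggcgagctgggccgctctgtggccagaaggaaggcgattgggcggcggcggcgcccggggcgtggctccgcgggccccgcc
Syvn1: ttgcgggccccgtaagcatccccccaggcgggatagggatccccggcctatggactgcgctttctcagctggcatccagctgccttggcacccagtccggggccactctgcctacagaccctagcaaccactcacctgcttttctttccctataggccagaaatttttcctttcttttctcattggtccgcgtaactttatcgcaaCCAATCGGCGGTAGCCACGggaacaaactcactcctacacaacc

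Library totals ran from 15023448 to 22026333 reads, and 17426 genes were tested. Control 2 and withdrawal 2 stood apart from the other libraries. Their 10 medial habenula markers summed to 19.3 and 15.9 CPM (reads relative to library size, with TMM scaling), against 780 to 1152 in the other 8 libraries, so results are given with all 10 libraries, and also with those 8 where the 8 changed a call, the sign or the size by over 1.5 times. The other libraries held these markers in both groups, with sums of 856 to 1129 in 3 controls and 780 to 1152 in 5 withdrawal libraries. Hippocampal and cortical neuron markers were present in every library and lower in withdrawal for 9 of 9 genes, with sums of 1419 to 9380 CPM in controls and 524 to 2766 in withdrawal.

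With all 10 libraries no member passed the test in withdrawal, although 36 of the 46 lay below zero. The test was edgeR's quasi-likelihood test on counts, withdrawal minus control, with Benjamini-Hochberg adjustment over all genes and a threshold of 0.05. It called 29 of 17426 genes, 24 lower and 5 higher (0.166%). The smallest adjusted p among the members was 0.159, for Hspa1b, followed by 0.186 for the ER ubiquitin ligase Syvn1. At an unadjusted p under 0.05 the members gave 12 lower and 2 higher, where all genes gave 8.57% lower and 6.32% higher. DESeq2 called 3 members lower, Hspa1a, Hspa1b and Syvn1, where it called 2.4% of all genes in either direction.

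The ER members had a lower median than the cytosolic ones with all 10 libraries, an order that turned without control 1 or without control 3. The median log2 change was -0.18 over the 17 ER members, 15 of them below zero, and -0.13 over the 21 cytosolic members, 14 of them below zero. It was -0.12 over the 5 stress regulators and -0.01 over the 3 mitochondrial chaperones. Over all genes tested the median was 0.02, with 47.3% below zero. Without control 3 the ER median was -0.094 and the cytosolic one -0.0997, and without control 1 they were -0.193 and -0.197. With limma on log2(FPKM + 1), where the median over all genes was 0.07, the ER median was -0.10 and the cytosolic one -0.05.

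**Figure D1:**
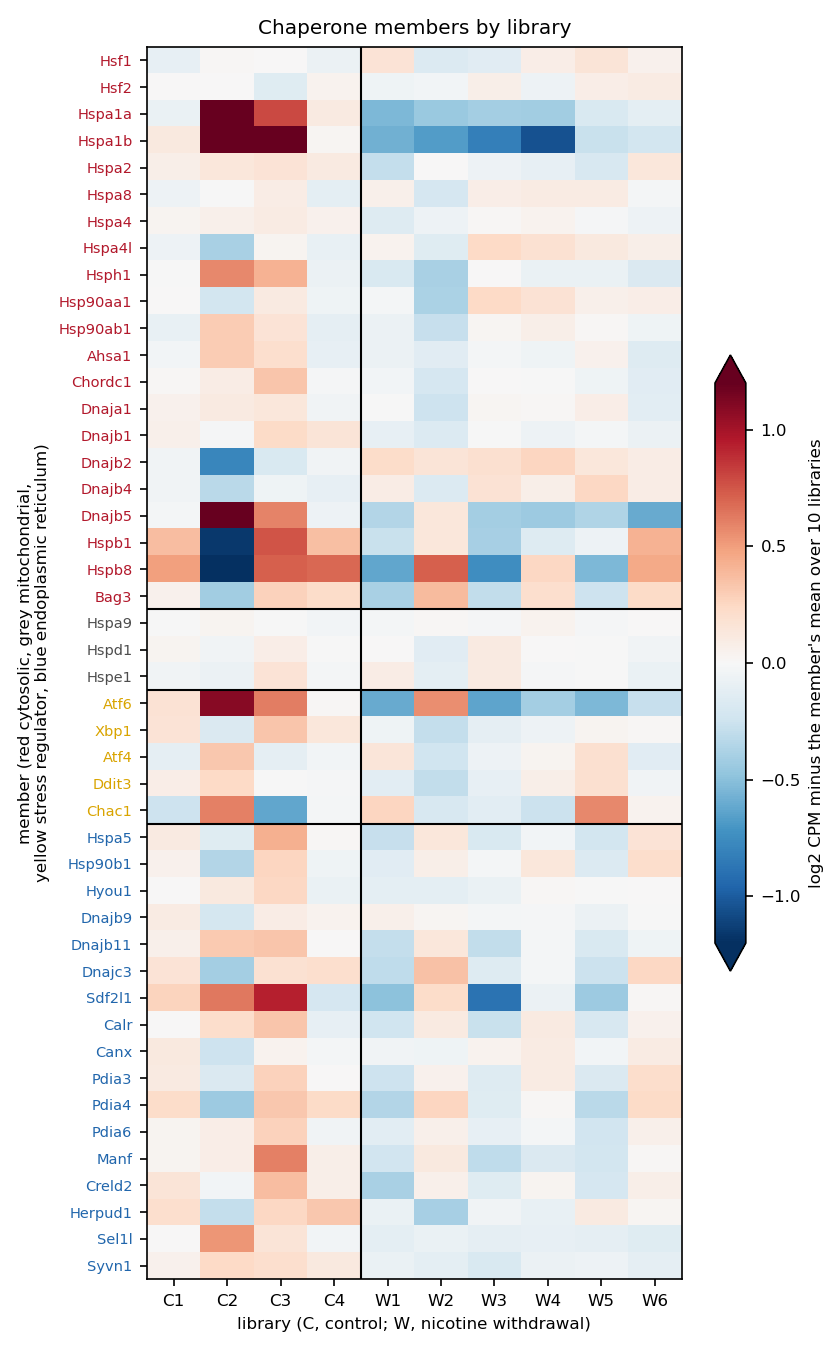
Each row is a member and each column a library (C1 to C4, control; W1 to W6, nicotine withdrawal), and the colour is the log2 CPM minus the member's mean over 10 libraries, capped at the ends of the colour bar. Control 3 is the highest library for 11 of 17 ER members, and the columns C2 and C3 are darkest red at Hspa1a and Hspa1b.

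Control 3 weighed on the whole set. It was the highest of the 10 libraries for 20 of 46 members, and for 11 of 17 ER members, where it was the highest for 4.53% of all genes. Taking each library's median deviation over the ER members from the mean of the 10, control 3 stood at 0.28 and the other controls at 0.10, -0.03 and 0.01. Withdrawal libraries 1, 3 and 5 stood at -0.23, -0.15 and -0.18, and withdrawal 2, 4 and 6 at 0.06, -0.02 and 0.05. The withdrawal libraries thus fell on both sides of controls 2 and 4.

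With all 10 libraries, the largest log2 differences among the members were those of the inducible Hsp70 pair; in the 8, Hspb8, Atf6 and Sdf2l1 exceeded Hspa1a. Hspa1b had 7.21, 24.7, 20.1 and 6.73 CPM in controls 1 to 4. In withdrawal it had a lowest value of 3.16, a median of 4.27 and a highest value of 5.66. Every withdrawal library was under every control, and controls 2 and 3 stood well above controls 1 and 4. The means were 14.7 ± 9.10 (SD, n = 4) and 4.42 ± 0.98 (SD, n = 6) CPM, from 54 to 462 reads per library. The log2 change was -1.73 (SE 0.37, edgeR adjusted p = 0.159), and -1.34 (SE 0.36, adjusted p = 0.0389) in the 8 libraries. Without control 3 as well it was -0.64 with an adjusted p of 0.160, and the call was kept in 3 of the 8 fits that left out a further library.

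Hspa1a had 5.44, 14.1, 10.04 and 6.21 CPM in the 4 controls and a lowest, median and highest value of 3.92, 4.29 and 5.28 in withdrawal. The groups did not overlap, and controls 2 and 3 were again the high ones. The log2 change was -0.99 (SE 0.25, edgeR adjusted p = 0.216), and -0.67 (SE 0.21, adjusted p = 0.0659) in the 8 libraries. Non-overlapping groups with withdrawal lower were seen in 4 members with all 10 libraries, Hspa1a, Hspa1b, Syvn1 and Sel1l, against 1.57% of all genes. The 1 member with withdrawal higher and no overlap was Dnajb2, against 1.7% of all genes.

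The other Hsp70 genes of the cytosol, which are not strongly stress-induced, differed less. Hspa2, best known from male germ cells, had 67.4, 70.3, 72.0 and 69.1 CPM in controls and a lowest, median and highest value of 52.7, 60.8 and 70.6 in withdrawal. Its groups overlapped through withdrawal 6 (log2 change -0.19, SE 0.08, edgeR adjusted p = 0.315). Hspa8, the constitutive Hsc70, had 1587 ± 98.9 CPM in controls (SD, n = 4) and 1637 ± 128 in withdrawal (SD, n = 6), a log2 difference of 0.05 (SE 0.09, edgeR adjusted p = 0.833), and 0.09 (SE 0.07, adjusted p = 0.429) in the 8 libraries.

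The Hsp110 proteins release nucleotide from Hsp70. Hsph1, the heat-inducible one, had 316, 473, 424 and 302 CPM in controls and a lowest, median and highest value of 241, 290 and 318 in withdrawal. Controls 2 and 3 were above every withdrawal library, while controls 1 and 4 lay within the withdrawal range (log2 change -0.40, SE 0.14, edgeR adjusted p = 0.268). Without control 2 and withdrawal 2 the change was -0.24 (adjusted p = 0.182). Hspa4 had a log2 change of -0.10 (SE 0.06) and Hspa4l one of 0.20 (SE 0.10), with edgeR adjusted p of 0.447 and 0.357.

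Hsp90 and its cochaperones had a median log2 change of -0.15 with all 10 libraries and -0.04 in the 8. None of them passed edgeR's test in either set. Hsp90ab1, the constitutive form, had 1741 ± 244 CPM in controls and 1596 ± 133 in withdrawal (SDs over 4 and 6 libraries), and its log2 change was -0.13 (SE 0.11) with all libraries and -0.00 (SE 0.08) in the 8. The inducible Hsp90aa1 had a log2 change of 0.07 (SE 0.12). Ahsa1, which activates the Hsp90 ATPase, had -0.17 (SE 0.09), and Chordc1, an Hsp90-binding cochaperone, had -0.18 (SE 0.08). The edgeR adjusted p of these 4 genes ran from 0.336 to 0.803, and in the 8 libraries the change of Ahsa1 was -0.08 (SE 0.08).

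The J proteins, which deliver clients to Hsp70, differed in sign. Dnajb5 had 91.7, 266, 141 and 89.4 CPM in controls and a lowest, median and highest value of 61.4, 71.6 and 103 in withdrawal. The 103 was withdrawal 2, and the other 5 withdrawal libraries were under every control. The log2 change was -0.97 (SE 0.29, edgeR adjusted p = 0.264), and in the 8 libraries Dnajb5 fell by 0.63 on the log2 scale (SE 0.14, adjusted p = 0.0212). It passed the test in all 8 fits that left out a further library, with changes of -0.75 to -0.39.

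Dnajb2, a J protein abundant in neurons that sends ubiquitylated clients to the proteasome, went the other way. It had 96.7, 57.6, 87.7 and 96.4 CPM in controls and a lowest, median and highest value of 106, 112 and 119 in withdrawal. Every withdrawal library was above every control, and control 2 was the low one. The log2 change was 0.41 (SE 0.13, edgeR adjusted p = 0.265), and Dnajb2 rose by 0.26 (SE 0.06, adjusted p = 0.0216) in the 8 libraries. This call was lost without control 3, with an adjusted p of 0.0819.

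Dnajb1, the heat-inducible Hsp40, had 54.6, 51.8, 61.3 and 58.0 CPM in controls and a lowest, median and highest value of 46.5, 49.9 and 52.2 in withdrawal. The groups overlapped only through control 2 and withdrawal 3 (log2 change -0.18, SE 0.06, edgeR adjusted p = 0.278, and -0.20 with adjusted p = 0.0510 in the 8 libraries). Dnajb4 had a log2 change of 0.22 (SE 0.09) and Dnaja1 one of -0.10 (SE 0.08), with edgeR adjusted p of 0.310 and 0.553; in the 8 libraries Dnaja1 had -0.05 (SE 0.07).

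The small heat shock proteins Hspb1 and Hspb8 hold aggregating proteins, and Bag3 links Hspb8 to Hsp70 for autophagy. Hspb8 had 42.2, 11.2, 49.1 and 48.4 CPM in controls and a lowest, median and highest value of 17.7, 28.0 and 49.1 in withdrawal. Control 2 was the lowest of all libraries and withdrawal 2 was level with control 3, so the change depended on those libraries: -0.30 (SE 0.43) with all and -0.80 (SE 0.26, edgeR adjusted p = 0.0691) in the 8. Hspb1 went from -0.27 (SE 0.31) to -0.58 (SE 0.18) and Bag3 from -0.05 (SE 0.19) to -0.27 (SE 0.15), with edgeR adjusted p in the 8 libraries of 0.0675 and 0.285. None of the 3 passed edgeR's test with all or with the 8 libraries. DESeq2 on the 8 libraries called Hspb1 and Hspb8 lower, where it called 18% of all genes in either direction.

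Hsf1 and Hsf2, the heat shock factors themselves, were level between groups. Hsf1 had 43.2 ± 1.62 CPM in controls (SD, n = 4) and 45.3 ± 4.45 in withdrawal (SD, n = 6), a log2 change of 0.07 (SE 0.08), and that of Hsf2 was 0.04 (SE 0.07). Their edgeR adjusted p were 0.71 and 0.79, and in the 8 libraries the changes were 0.12 (SE 0.08) for Hsf1 and 0.06 (SE 0.07) for Hsf2. Hsf1 activity is set largely after transcription. The mitochondrial chaperones Hspa9, Hspd1 and Hspe1, which fold imported proteins, had the median nearest zero of the 4 classes with all 10 libraries; in the 8 their median and that of the stress regulators were both -0.02. Hspa9 had 258 ± 4.94 CPM in controls and 257 ± 4.37 in withdrawal (SDs over 4 and 6 libraries), a log2 difference of -0.00 (SE 0.05, edgeR adjusted p = 0.995), and 0.01 (SE 0.04) in the 8 libraries. Hspd1 and Hspe1 had -0.03 (SE 0.06) and -0.01 (SE 0.07).

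**Figure D2:**
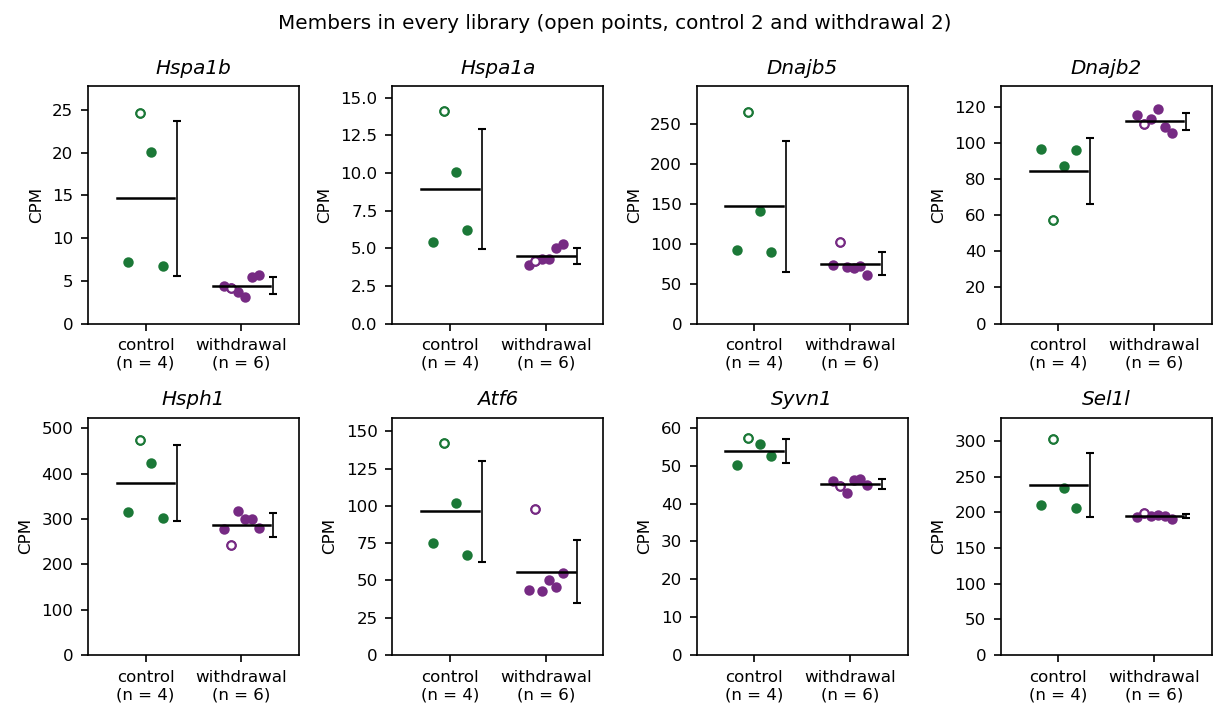
CPM of 8 members in every library (points), with the group mean (line) and SD (bar, n = 4 controls and 6 withdrawal), each axis starting at 0; open points are control 2 and withdrawal 2. Withdrawal lies wholly under the controls for Hspa1a, Hspa1b, Syvn1 and Sel1l and wholly above for Dnajb2, and the open withdrawal points of Dnajb5 (103 CPM) and Atf6 (97.7 CPM) lie among the controls.

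Among the stress regulators, Atf6 differed most. This ER membrane protein is cut under stress to free a transcription factor for ER chaperone genes. It had 75.0, 142, 102 and 67.0 CPM in controls and a lowest, median and highest value of 42.7, 48.0 and 97.7 in withdrawal. Withdrawal 2 held the 97.7, and the other 5 withdrawal libraries, at 42.7 to 54.9, were under every control. The log2 change was -0.79 (SE 0.28, edgeR adjusted p = 0.274). Without withdrawal 2 alone it was -1.04 and passed (adjusted p = 0.0327), the one member to do so in a fit where 4.67% of genes passed. In the 8 libraries Atf6 fell by 0.78 on the log2 scale (SE 0.13, adjusted p = 0.00751), and it passed in all 8 fits without a further library, with changes of -0.91 to -0.59.

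Xbp1 had 103 ± 14.4 CPM in controls (SD, n = 4) and 89.6 ± 7.04 in withdrawal (SD, n = 6), a log2 difference of -0.20 (SE 0.10, edgeR adjusted p = 0.373). In the 8 libraries it fell by 0.25 (SE 0.06, adjusted p = 0.0347), a call kept in 3 of 8 fits without a further library. Atf4, which is mainly controlled by translation, had -0.03 (SE 0.11), its target Ddit3 (Chop) had -0.12 (SE 0.10), and Chac1, which degrades glutathione, had 0.08 (SE 0.26). Their edgeR adjusted p ran from 0.589 to 0.913. Over the 8 libraries Atf4 had 0.12 (SE 0.08), Ddit3 -0.02 (SE 0.09) and Chac1 0.42 (SE 0.23), with adjusted p of 0.345, 0.916 and 0.266.

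Of the large ER chaperones, none passed edgeR's test with all or with the 8 libraries. Hspa5 (BiP), the ER Hsp70, had 475 ± 82.8 CPM in controls (SD, n = 4) and 420 ± 55.8 in withdrawal (SD, n = 6). Its log2 change was -0.18 (SE 0.13, edgeR adjusted p = 0.534), and -0.30 (SE 0.12, adjusted p = 0.124) in the 8 libraries. Hsp90b1 (Grp94) had 0.03 (SE 0.12) and Hyou1, the ER member of the Hsp110 family, had -0.13 (SE 0.07). The lectin chaperones, which bind sugar chains, had -0.18 (SE 0.12) for Calr and 0.04 (SE 0.08) for Canx, with edgeR adjusted p of 0.467 and 0.831. Hsp90b1 and Canx were below zero in the 8 libraries, at -0.09 (SE 0.10) and -0.01 (SE 0.06).

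The J proteins of the ER and Sdf2l1, which works with Dnajb11 and BiP, lay below zero in 4 of 4. Sdf2l1 had 12.4, 16.1, 19.8 and 8.97 CPM in controls and a lowest, median and highest value of 5.55, 8.72 and 12.1 in withdrawal. Controls 1, 2 and 3 were above every withdrawal library and control 4 was within their range (log2 change -0.70, SE 0.26, edgeR adjusted p = 0.281). Dnajb11 had 61.0, 73.0, 73.8 and 58.6 CPM in controls and a lowest, median and highest value of 47.8, 54.1 and 64.2 in withdrawal. Its groups overlapped through withdrawal 2 (log2 change -0.29, SE 0.11, edgeR adjusted p = 0.280). Dnajc3, an inhibitor of the kinase Perk as well as a BiP partner, had -0.06 (SE 0.17), and -0.27 (SE 0.11, adjusted p = 0.132) in the 8 libraries. Dnajb9 had -0.01 (SE 0.07), and -0.09 (SE 0.05) in the 8 libraries.

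The disulfide isomerases Pdia3, Pdia4 and Pdia6 had log2 changes of -0.09 (SE 0.11), -0.15 (SE 0.17) and -0.15 (SE 0.08), with edgeR adjusted p of 0.416 to 0.723. With the 8 libraries they had -0.18 (SE 0.11), -0.36 (SE 0.12) and -0.18 (SE 0.09), with adjusted p of 0.300, 0.0737 and 0.210. Manf, a secreted BiP-binding protein known for protecting neurons, had 57.9, 60.0, 86.4 and 59.7 CPM in controls and a lowest, median and highest value of 46.0, 49.4 and 61.6 in withdrawal. Control 3 stood above the rest, and withdrawal 2 overlapped the controls (log2 change -0.34, SE 0.13, edgeR adjusted p = 0.289). In the 8 libraries it was -0.45 (SE 0.13, adjusted p = 0.0519). Creld2, another ER protein induced by stress, had -0.23 (SE 0.12), and -0.32 (SE 0.12, adjusted p = 0.0958) in the 8 libraries.

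The 3 members of ER-associated degradation were all below zero. Syvn1, the ubiquitin ligase Hrd1 whose promoter is printed above, had 50.1, 57.3, 55.6 and 52.4 CPM in controls and a lowest, median and highest value of 42.7, 45.3 and 46.5 in withdrawal. The groups did not overlap, and controls 2 and 3 were the highest. Its log2 change was -0.25 (SE 0.06, edgeR adjusted p = 0.186), and Syvn1 fell by 0.22 (SE 0.06, adjusted p = 0.0388) in the 8 libraries. That call was kept in 2 of 8 fits without a further library, with an adjusted p of up to 0.114.

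Sel1l, the adaptor of Syvn1, had 211, 303, 234 and 206 CPM in controls and a lowest, median and highest value of 190, 195 and 199 in withdrawal. The groups did not overlap and control 2 stood far above the rest (log2 change -0.29, SE 0.10, edgeR adjusted p = 0.274, and -0.16 with adjusted p = 0.0915 in the 8 libraries). Herpud1, a stress-induced component of the same complex, had 64.1 ± 11.2 CPM in controls (SD, n = 4) and 55.5 ± 6.31 in withdrawal (SD, n = 6). Its log2 change was -0.21 (SE 0.13, edgeR adjusted p = 0.450), and in the 8 libraries it fell by 0.27 (SE 0.06, adjusted p = 0.0208). Without control 3 or control 4 the adjusted p of Herpud1 was 0.0553 or 0.0714.

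Without control 2 and withdrawal 2 the ER members lay below zero in 17 of 17, with a median log2 change of -0.22, against -0.10 over the cytosolic members and 0.01 over all genes. In these 8 libraries 6 members fell, Hspa1b, Dnajb5, Atf6, Xbp1, Herpud1 and Syvn1, and 1 rose, Dnajb2. The background was high: 6.77% of all genes were called lower and 5.38% higher. Groups did not overlap for 12 members with withdrawal lower, against 11.1% of all genes, and for 3 with withdrawal higher, Hspa4l, Dnajb2 and Dnajb4, against 10.8%. The number of members called ran from 2 without control 3 (5.2% of all genes) to 18 without withdrawal 6 (17.3% of all genes). DESeq2 on the 8 libraries called 17 members, where 18% of all genes were called.

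Levels between members can be compared only per length, in FPKM. The highest mean over the 10 libraries was 548 FPKM for Hsp90ab1, followed by 375 for Hspa8 and 333 for Hsp90aa1, the general folding machinery of the cytosol. The ER followed with 144 for Calr, 130 for Hsp90b1, 111 for Canx and 104 for Hspa5. The inducible pair stood at the bottom, with 2.93 FPKM for Hspa1b and 2.07 for Hspa1a, beside 2.503 for Chac1. Hspa1b, the member with the largest log2 difference, was therefore one of the 3 least expressed.

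**Figure D3:**
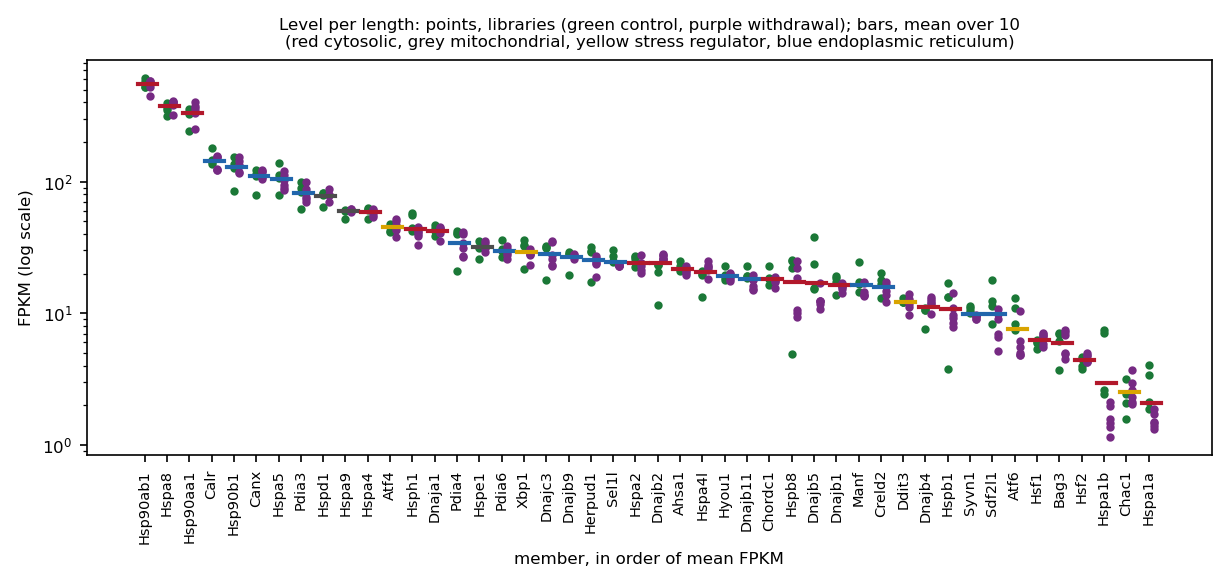
FPKM of each member on a log axis, in order of its mean over 10 libraries (bar, coloured by compartment), with points for control (green) and withdrawal (purple) libraries. The members run from 548 FPKM for Hsp90ab1 to 2.07 for Hspa1a at the right end.

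Some members followed cell type markers across libraries. The hippocampal and cortical neuron markers were highest in controls 2 and 3 and withdrawal 2, at 9380, 3028 and 2766 CPM, then controls 1 and 4, at 1480 and 1419, and 524 to 767 in the other withdrawal libraries. Dnajb5 and Atf6 had the same 5 libraries on top in the same order. Dnajb11, Manf and Sel1l also had these 5 on top, making 5 of 46 members against 7.38% of all genes. Controls 2 and 3 and withdrawal 2 were the highest 3 libraries in 4 of 46 members, against 9.37% of all genes. Neither set of top libraries was particular to the members. In the 8 libraries 5 of the 9 markers were called lower and their sums were 1419 to 3028 CPM in controls and 524 to 767 in withdrawal, so they separated the groups as Dnajb5 and Atf6 did. None of these markers was at 0 in any library. The part of such RNA in the differences of Dnajb5 and Atf6 was not tested. Thalamic neuron markers went the other way, with 0 of 7 below zero and a median log2 change of 0.96. In the 8 libraries their median was 0.76 and edgeR called 2 higher. Their sums there were 401 to 655 CPM in controls and 607 to 1102 in withdrawal. Medial habenula, ependyma and blood markers had 0 below zero of 10, 6 and 5. The part of thalamic or other such RNA in the members that rose was not tested.

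Meningeal fibroblast markers were lowest in control 2 (25.01 CPM), withdrawal 3 (41.9), withdrawal 5 (55.3) and withdrawal 1 (64.0), and were 134 to 243 in the rest. All 6 were below zero in withdrawal, with sums of 25.01 to 243 CPM in controls and 41.9 to 203 in withdrawal, and none was at 0 in any library. The groups did not overlap in the 8 libraries, with sums of 184 to 243 CPM in controls and 41.9 to 144 in withdrawal, and 4 of the 6 were called lower. Choroid plexus markers were lowest in the same 4 libraries, at 62.1 to 2882 CPM against 4570 to 13237 in the rest. Hspb8, Bag3, Hspa5, Dnajc3, Pdia3, Pdia4 and Creld2 were also lowest in those 4, 7 of 46 members and 5 of 17 of the ER, against 4.94% of all genes. In withdrawal 2, 4 and 6, which held more of these markers, Pdia4 had 96.5, 81.7 and 94.7 CPM, beside 94.1, 102 and 95.2 in controls 1, 3 and 4. In withdrawal 1, 3 and 5 it had 63.4, 73.0 and 64.6. The part of meningeal or choroid plexus RNA in the ER members' values was not tested.

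The sums of 3 of the glial marker lists also separated the groups in the 8 libraries, where all 17 ER members lay below zero. Oligodendrocyte markers summed to 11212 to 12479 CPM in controls and 5969 to 10283 in withdrawal, with 5 of 8 called lower. Astrocyte markers summed to 3082 to 3581 and 2377 to 2727, with 2 of 8 called lower, and oligodendrocyte precursor markers to 439 to 450 and 325 to 411, with 3 of 7 called lower. With all 10 libraries the sums of the 3 lists overlapped between groups, and none of their markers was at 0 in any library. Single markers of these lists, such as Aqp4, Opalin and Olig2, overlapped between groups in the 8 libraries. Microglia markers did not separate the groups there, with sums of 241 to 266 CPM in controls and 203 to 256 in withdrawal and 0 of 8 called. The part of glial RNA in the members' differences was not tested.

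**Figure D4:**
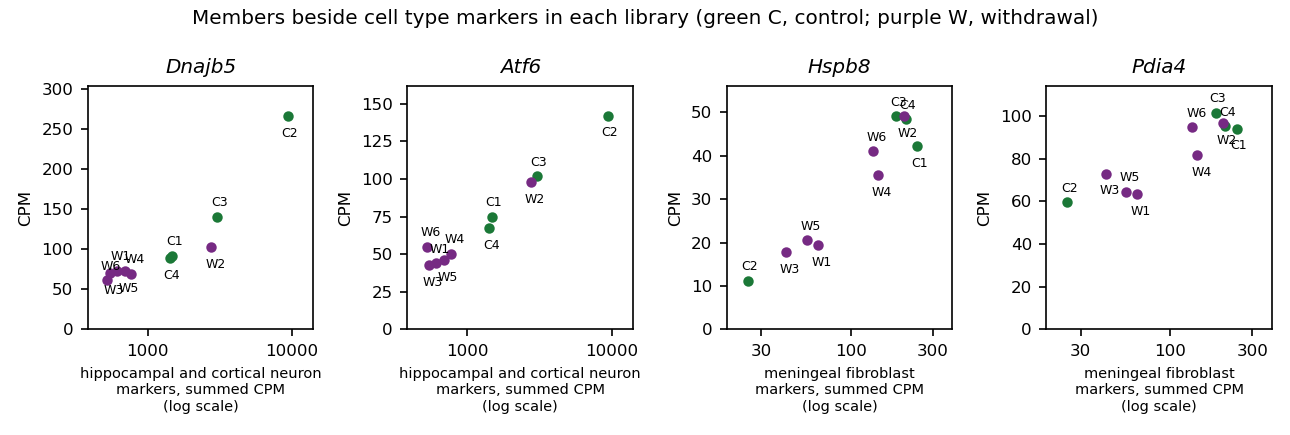
CPM of 4 members against the summed CPM of cell type markers (log axis) in each library; green points are controls, purple points withdrawal. Dnajb5 and Atf6 are highest in C2, C3 and W2, where hippocampal and cortical markers are highest, and Hspb8 and Pdia4 are lowest in C2, W1, W3 and W5, where meningeal fibroblast markers are lowest.

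Other genes of the same pathways, in 5 lists of 104 genes, were spread about zero. With all 10 libraries none was called by edgeR, 53 lay below zero, and their median log2 change was -0.00. At an unadjusted p under 0.05, 11 of the 104 were lower and 4 higher, beside 8.57% and 6.32% of all genes. The 34 other ER folding and degradation genes had a median of 0.01 with 17 below zero, where the 17 ER members had -0.18 with 15; in the 8 libraries it was -0.05 with 21 below zero. Txndc5, a disulfide isomerase, had a log2 change of 0.20 (SE 0.09), and 0.11 (SE 0.07) in the 8 libraries. Sec61a1, the channel through which proteins enter the ER, had -0.30 (SE 0.10), and Dnajc1, an ER J protein, had -0.44 (SE 0.19). In the 8 libraries Sec61a1 fell by 0.27 (edgeR adjusted p = 0.0226) and Dnajc1 fell by 0.43 (adjusted p = 0.0136).

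The 28 stress sensors and their other targets had 16 below zero and a median of -0.06, with 9 lower and 1 higher at an unadjusted p under 0.05 (8.57% and 6.32% of all genes). Of the 28, 19 were below zero in the 8 libraries and the median was -0.13. Cebpb, a partner of Atf4, had 11.3 ± 5.04 CPM in controls (SD, n = 4) and 5.25 ± 1.82 in withdrawal (SD, n = 6), a log2 difference of -1.10 (SE 0.30, edgeR adjusted p = 0.248). Eif2ak3, the sensor Perk, had -0.20 (SE 0.06), and Ppp1r15b, which reverses its mark on translation factor eIF2 alpha, had -0.21 (SE 0.06). Both had groups that did not overlap with withdrawal lower, 2 of the 28 against 1.57% of all genes. In the 8 libraries, where 6.77% of all genes were called lower, edgeR called 5 of the list lower: Cebpb, Ppp1r15b, Creb3l2, Psat1 and Mbtps2, with changes of -0.98, -0.24, -0.44, -0.31 and -0.23.

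The 8 subunits of CCT, the ring chaperonin that folds actin and tubulin, had 1 below zero and a median of 0.08 with all libraries. Cct8 had a log2 change of 0.22 (SE 0.12) and rose by 0.24 (edgeR adjusted p = 0.0340) in the 8 libraries. Tcp1 and Cct7 had 0.12 (SE 0.08) and 0.12 (SE 0.08) and did not pass edgeR's test with all or with the 8 libraries. The 25 other cytosolic chaperones had 13 below zero and a median of -0.02, and in the 8 libraries 7 below zero and a median of 0.06. Among them Dnajc7 had 0.13 (SE 0.06), with withdrawal higher and no overlap of its groups, 1 of the 25 against 1.7% of all genes. Pdcl3 had 0.23 (SE 0.09) and Bag4 had -0.32 (SE 0.15), which was -0.21 (SE 0.10) in the 8 libraries. The 9 other mitochondrial chaperones and proteases had 6 below zero and a median of -0.02, with Grpel2 at -0.15 (SE 0.08), Dnaja3 at -0.08 (SE 0.06) and Clpp at 0.07 (SE 0.08). These 3 were at -0.09 (SE 0.08), -0.04 (SE 0.05) and 0.03 (SE 0.08) in the 8 libraries.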

How the data were processed

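RNA-seq counts from 10 mouse libraries were used. The count columns were deposited by the authors as raw read counts per gene, per the file headers, and the FPKM columns were deposited by the authors as FPKM, per the file headers. HTSeq 0.6.1, HISAT2 2.2.1 and cutadapt 1.9.1 are named in the submitters' processing notes, as is build mm39. The annotation release and strand setting are not given in the sources used here, so overlapping antisense genes cannot be told apart. GENCODE M21 named 52073 of 56691 identifiers.

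Members, gene lists and the 8-library comparison were chosen with earlier results of these data known. Genes with a mean of at least 0.5 FPKM were tested (17426 genes, at least 99.6% of each library's reads) with the quasi-likelihood test of edgeR 4.0.16 (R 4.3.3, TMM factors, 2-sided, Benjamini-Hochberg over all genes, threshold 0.05). On simulated counts this test recovered 18% of 50 genes changed 1.5-fold with 10 libraries and 46% with 8. For 2-fold changes it recovered 64% and 90%, so small changes can be missed. Unchanged genes made up 4 of the 132 calls with 10 libraries and 14 of the 180 with 8. The simulated libraries did not differ in tissue content as the measured ones did. Levels are CPM with TMM factors, and each replicate is 1 mouse. Alternatives were DESeq2 1.42.0, limma 3.58.1 on log2(FPKM + 1), other scaling and filters, a replicate block and libraries left out. Named genes were, per role group, the 3 members with the smallest p and the one with the highest FPKM, and per list up to 3 by p. Members named with p under 0.05, and Hspb8, are given as each control's value and the lowest, median and highest withdrawal value. Dnajb4, Dnajb9, Hsp90aa1, Chac1, Creb3l2, Psat1, Mbtps2 and the members set beside markers were added after their values were seen. The replicate numbers of the 2 groups were not read as pairs, though a pairing by number was not excluded.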

Additional observations from a re-analysis of the deposited data

Results flagged for a closer look

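In 5 of 92 member groups (5.43%) the gap between the highest or lowest library and the next, as a share of the group's range, was above Dixon's 95% critical value, which chance passes in about 1 in 20 groups. Dnajb5 had 103 CPM in withdrawal 2, against 61.4 to 73.3 in the other 5 withdrawal libraries, and Atf6 had 97.7 CPM in the same library, against 42.7 to 54.9. Atf4 was highest in control 2 at 133 CPM, against 98.5 to 104 in the other controls. Dnajc3 was lowest in control 2 at 108 CPM, against 160 to 164. Manf was highest in control 3 at 86.4 CPM, against 57.9 to 60.0.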

How the results depend on the processing

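The 29 genes called became 407 with DESeq2, 15 with limma, 0 with a replicate block and 2116 without control 2 and withdrawal 2, and 4 to 814 with single libraries left out. The 0 members called became 3 with DESeq2 and 7 without control 2 and withdrawal 2, and stayed at 0 to 1 with single libraries left out, the 1 being Atf6 without withdrawal 2. Those 7 became 17 with DESeq2 and 2 to 18 with each further library left out, alternatives chosen after seeing the data. The replicate block called no gene and no member; deviations of same-numbered libraries correlated at 0.02, 0.28, -0.12 and 0.22, so the numbers were not read as pairs, and not every library correlated best with its own number. Members near zero changed sign. With limma, Bag3 was 0.011, Hspa9 0.068, Hspd1 0.044, Hspe1 0.056, Atf4 0.042 and Dnajc3 0.010. With the replicate block, Hspa9 was 0.0016 and Hspe1 0.0072. Without control 2 and withdrawal 2, Hspa9 was 0.0065, Atf4 0.12, Hsp90b1 -0.086 and Canx -0.013. With single libraries left out, the lowest and highest values were -0.013 and 0.056 for Hsf2, -0.0039 and 0.074 for Hspa8, -0.18 and 0.023 for Bag3, -0.030 and 0.012 for Hspa9, -0.049 and 0.030 for Hspe1, -0.096 and 0.083 for Atf4, -0.073 and 0.12 for Hsp90b1, and -0.025 and 0.076 for Canx. None of these passed a threshold, and the cause was not tested. Hspa1a and Hspa1b rest on few reads, 66 to 264 and 54 to 462 a library.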
